A study of Mus musculus with 6 samples.

Results

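The domain described here is a stretch of 1.1 Mb on mouse chromosome 2, from 132.9 to 134.0 Mb in the build mm9, that holds the gene Bmp2 near 133.4 Mb and the gene-poor DNA around it. Its members are the accessible regions called in that stretch by ATAC-seq, which cuts open DNA with the transposase Tn5: 22 of the 42310 regions of cells given the vehicle DMSO, 5 of the 25922 regions after 6 h of BRM014 and 12 of the 38422 regions after 30 h. The stretch was chosen by gene, with the earlier count of its DMSO regions missing at 30 h known. Losses within it are therefore a description of the choice, and no test was made on them. The cells were NMuMG, an established epithelial line from normal mouse mammary gland, wild type, grown in medium with serum and insulin. BRM014 inhibits SMARCA4 and SMARCA2, the ATPase subunits that drive the SWI/SNF chromatin remodelling complexes. The 3 groups, BRM014 for 6 h, BRM014 for 30 h and DMSO, had 2 biological replicates each, combined by the authors into 1 peak list for each group. There is thus no replicate spread for any value below. The DMSO time is known only from the list's file label, as 30 h, and both treated lists were set against that list, so they share their control. The labels' extraction text also mentions TGFβ, which no sample label carries. Marker genes of the cell type were not examined, because no mm9 annotation was used.

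Bmp2 encodes a secreted ligand of the bone morphogenetic protein family, which signals through paired serine/threonine kinase receptors to SMAD transcription factors and is known for its part in bone, heart and epithelial development. The gene lies in a gene desert, and in mice distant enhancers in that desert are known to drive its expression in particular tissues. SWI/SNF complexes slide and evict nucleosomes and are known to keep many distal enhancers open. In the RefSeq gene order of the build GRCm38.p6 the nearest protein-coding genes are Fermt1, which encodes the integrin activator kindlin-1, on the side of lower coordinates and Hao1, which encodes a hydroxyacid oxidase of liver peroxisomes, on the side of higher coordinates. The direct neighbours are the long noncoding RNA gene Gm14100 and the microRNA gene Mir3090. Positions below are distances of a region's highest summit from 133.4 Mb, with a minus sign toward lower coordinates. That position is a round one, not the gene's start site.

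Most of the accessible regions of the Bmp2 domain were not called after BRM014. At 6 h, 17 of 22 DMSO regions were missing (77.3%, 95% Wilson interval 56.6 to 89.9%), where missing means that no region of the treated list overlapped them. Over the whole DMSO list 43.6% were missing at 6 h. At 30 h, 12 of 22 were missing (54.5%, 34.7 to 73.1%), against 26.1% of the whole list. The domain had 11 regions missing at both times, a share of 50% (30.7 to 69.3%), against 23.7% of the list. Another 6 were missing at 6 h only, or 27.3% against 19.9% of the list, and 1 at 30 h only, or 4.55% against 2.33%. The remaining 4 were called at both times, or 18.2% against 54.1%. The regions of the domain covered 3868 bp at 6 h and 7056 bp at 30 h, against 14622 bp in DMSO. The length covered by the whole lists is not given here. They shrank too, to 25922 regions at 6 h and 38422 at 30 h, against 42310. Their median widths were 656 and 601 bp, against 677 bp in DMSO. The lists differ in depth: the lowest background solved for each list, taken as a measure of relative depth, was 63.0% of DMSO at 6 h and 80.7% at 30 h. A region absent from a treated list may still be open but short of what that list required. Fewer cells with the region open cannot be told apart from less opening per cell.

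**Figure D1:**
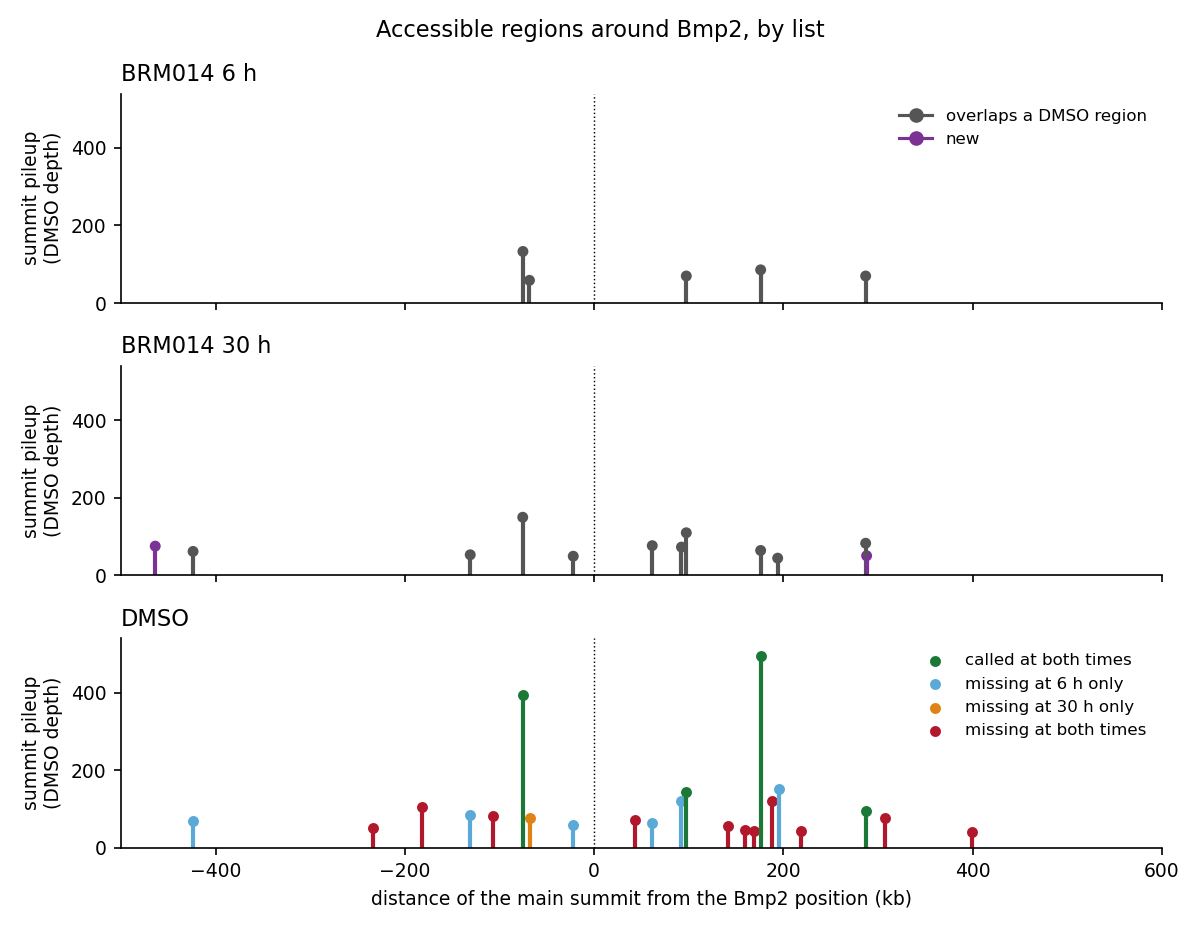
Each stem is an accessible region, placed by the distance of its highest summit from the Bmp2 position (kb), with its summit pileup divided by the relative depth of its list. The tallest DMSO stems, with pileups of 493 and 393, stood at 85.7 and 133 in the 6 h list and at 64.4 and 150 in the 30 h list on this scale.

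Among the members still called after treatment, the strongest DMSO region of the domain was also the one furthest below its expected height. It lies at 176 kb, chr2:133575414-133576373, 960 bp wide with 2 summits, and its -log10 q of 496 put it in the top decile of the DMSO list. Its highest summit had a pileup, the number of reads or fragments stacked there, of 54 at 6 h and 52 at 30 h, against 493 in DMSO. The depth of the lists would have given 311 at 6 h and 398 at 30 h. The pileup found was thus 0.174 of that expected at 6 h and 0.131 at 30 h. Weaker members had less room for so low a ratio, as the lowest pileup of a region called in the domain was 37 at 6 h and 36 at 30 h. The lowest pileup over the whole lists is not given here. Members that were missing have no ratio. Among DMSO regions of similar expected pileup that were still called, 1.74% of 1037 had a lower ratio at 6 h and 0% of 1305 at 30 h. The region was called at both times all the same, so it counts as kept by overlap. Its width was 648 bp at 6 h and 855 bp at 30 h, and its main summit stayed within 11 bp of its DMSO position.

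The next strongest was a broad region with 4 summits at -75.5 kb, chr2:133323892-133325026, 1135 bp wide and with a -log10 q of 321. Its highest pileup was 84 at 6 h and 121 at 30 h, against 393 in DMSO. These are 0.339 of the 248 expected at 6 h and 0.381 of the 317 expected at 30 h. Of kept DMSO regions at similar expected pileup, 13.3% had a lower ratio at 6 h and 7.95% at 30 h. The summits did not keep their proportions. At 30 h the interval began 472 bp further in and held 3 summits, and the summit on the side of lower coordinates, which had a pileup of 35 at 6 h and 211 in DMSO, lay outside it. At 6 h the summits at 133324694 and 133324531 were nearly level, with pileups of 84 and 79. In DMSO the summit at 133324524 led, with 393 against 268 at 133324698. The order of DMSO held at 30 h, with 121 at 133324525 and 103 at 133324704.

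The kept region with the next highest -log10 q lies at 97.5 kb, chr2:133497103-133497806, with a value of 128 in DMSO. Its pileup was 44 at 6 h and 89 at 30 h, against 143 in DMSO. The ratio to the pileup expected was 0.488 at 6 h and 0.771 at 30 h. This region thus stood closer to its expected height at 30 h than at 6 h, unlike the one at 176 kb. The last of the regions called at both times, at 287 kb, chr2:133686552-133687240, had a pileup of 44 at 6 h and 67 at 30 h, against 94 in DMSO, or 0.743 and 0.883 of that expected.

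The 6 regions called at 30 h but not at 6 h lie on both sides of the gene. The one nearest to the gene's position, at -22.1 kb, chr2:133377715-133378550, had 3 summits and a pileup of 40 at 30 h, against 60 in DMSO, or 0.826 of that expected. Its distance is from the round position: without an mm9 annotation, whether it holds the promoter of Bmp2 was not examined, and it lies close to the other gene position tried, 133.38 Mb. Its interval at 30 h differed by 4 bp at its start and by 10 bp at its end, so its extent was nearly that of DMSO, with 3 summits again. The region at 61.4 kb, chr2:133461084-133461596, had a pileup of 62 at 30 h, against 65 in DMSO. At 1.18 times that expected, it was the one kept region of the domain above its expected height. The region at -424 kb stood at 0.885 of that expected, with a pileup of 50 at 30 h against 70 in DMSO. The regions at -131 kb and 92.2 kb stood at 0.627 and 0.604, with pileups of 43 and 59 at 30 h against 85 and 121 in DMSO. The region at 195 kb, chr2:133594170-133594765, had the highest DMSO pileup of the 6, with 36 at 30 h against 152 in DMSO. That is 0.293 of the 123 expected, and 1.39% of 2445 kept regions at similar expected pileup had a lower ratio.

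**Figure D2:**
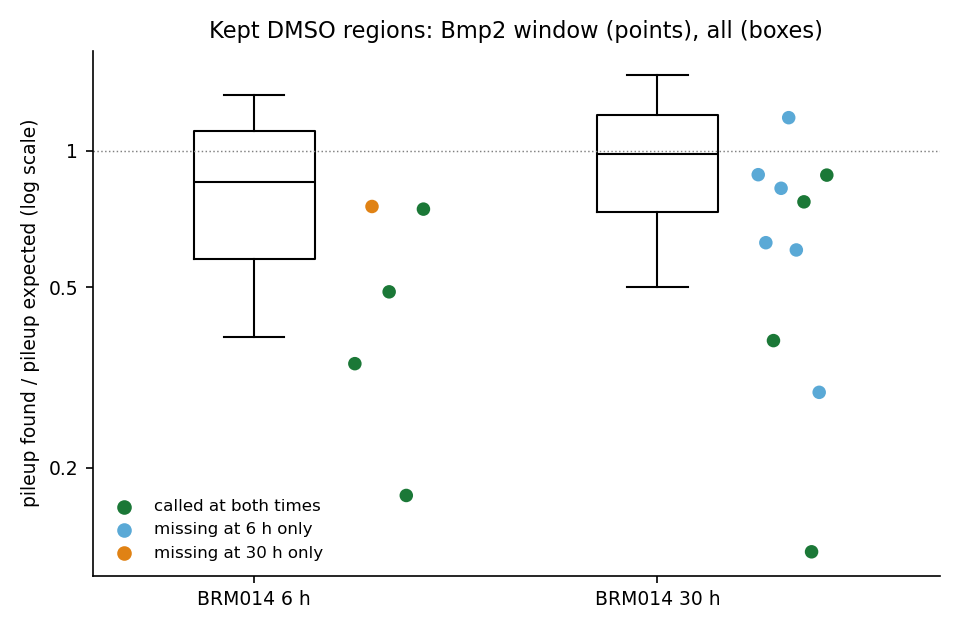
Pileup found over pileup expected (log axis) for DMSO regions still called at 6 h and at 30 h. Boxes give the quartiles and whiskers the 10th and 90th percentiles over all kept regions, and points are the 5 and 10 kept regions of the Bmp2 domain, with a median of 0.488 at 6 h and 0.699 at 30 h.

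Across the domain the kept regions had a median ratio of 0.488 at 6 h, from 0.174 to 0.753 over 5 regions, and of 0.699 at 30 h, from 0.131 to 1.18 over 10. These ratios take the highest summit of each list. With the treated summit nearest to the main DMSO summit, an alternative chosen after seeing the data, the median was 0.319 at 6 h and 0.699 at 30 h, and the upper value of 0.753 at 6 h, from the region at -67.8 kb, became 0.305. Over all kept DMSO regions the medians were 0.855 at 6 h, over 23858 regions, and 0.985 at 30 h, over 31283. All 5 kept regions of the domain were below 1 at 6 h and 9 of 10 at 30 h, against 64.9% and 52.1% of the list. A ratio exists only for a region that was called, so weak regions enter it only where their treated pileup was high enough for a call. These values come from the contrast that chose the domain and are given as a description.

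The 12 regions missing at 30 h had pileups from 41 to 121 in DMSO. Among them 11 were also missing at 6 h. The one with the highest -log10 q, 101, lies at -182 kb, chr2:133218031-133218539, with 1 summit and a pileup of 104 in DMSO. At the depth of the treated lists that would have been 65.5 at 6 h and 84.0 at 30 h. At those expected pileups 52.0% of all DMSO regions were missing at 6 h and 30.4% at 30 h. The widest region of the domain, 1245 bp at 188 kb, chr2:133587228-133588472, was missing at both times as well, with a pileup of 121 in DMSO and 76.2 and 97.7 expected at 6 h and 30 h. At its expected pileup 44.0% of the list was missing at 6 h and 24.4% at 30 h.

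On the side of lower coordinates the other members missing at both times were a region at -234 kb, chr2:133165967-133166528, with a pileup of 52 in DMSO, and one at -107 kb, chr2:133292977-133293537, with 82. On the other side of the gene the nearest lay at 43.4 kb, chr2:133443127-133443792, with a pileup of 71 in DMSO. Weaker ones followed at 142 kb, chr2:133541885-133542322, with 57, at 159 kb, chr2:133558711-133559082, with 45, and at 169 kb, chr2:133568999-133569521, with 44. These 3 neighbours formed the longest run of adjacent members missing at 30 h. Beyond them the region at 219 kb, chr2:133618934-133619339, had a pileup of 43 in DMSO. The last members of the domain lie at 307 kb, chr2:133706428-133707053, with 77, and at 399 kb, chr2:133798381-133798772, with 41, the lowest pileup of all 22.

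The densest part of the domain surrounds its strongest region. Between 133541885 and 133619339, a span of 77.5 kb delimited after the values were seen, lie 7 DMSO regions. Of these 5 were missing at both times, against 23.7% of the whole list, 1 was called at 6 h and 2 were called at 30 h. Most of the 5 are weak: at their expected pileups 44.0 to 84.6% of all DMSO regions were missing at 6 h and 24.4 to 62.8% at 30 h. The 2 called at 30 h are the regions at 176 kb and 195 kb. Among the kept members at 30 h they had the lowest ratios of pileup found to expected, 0.131 and 0.293. On the other side of the gene the longest run of members missing at 6 h held 5 neighbours, from 132975922 to 133293537, and 2 of them, at -424 kb and -131 kb, were called at 30 h.

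The region missing at 30 h only lies at -67.8 kb, chr2:133331472-133332573, 6.45 kb from the broad region at -75.5 kb. It had a pileup of 37 at 6 h, against 78 in DMSO, or 0.753 of that expected when the highest summit of each list is taken. Both lists placed 2 summits in it, but not with the same one leading. At 6 h the summit at 133331617 had a pileup of 37 and that at 133332093 one of 15. In DMSO the summit at 133331629 had 25 and that at 133332198 had 78. The highest summit at 6 h therefore lay at -581 bp from the one in DMSO, and divided by relative depth its pileup of 58.7 compares with 25 at the matching DMSO summit. The 6 h summit nearest to the main one in DMSO had 0.305 of the pileup expected. At 30 h no region of the list overlapped it, with 63.0 expected. At that expected pileup 42.5% of all DMSO regions were missing at 30 h.

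New regions had a share near that of the whole list at 30 h, and at 6 h the domain held too few regions to compare. At 6 h all 5 regions of the domain overlapped a DMSO region, so 0 of 5 were new, which allows a share of up to 43.4% by the Wilson interval, against 7.42% of the whole 6 h list. At 30 h 2 of 12 were new (16.7%, 4.70 to 44.8%), against 17.9% of the whole 30 h list. One lies at -464 kb, chr2:132935849-132936253, with a pileup of 61, a -log10 q of 48.4 and a score of 1000. It is the member furthest from the gene in any list. The other, at 288 kb, chr2:133687679-133688002, had a pileup of 41 and lay 438 bp from the DMSO region at 287 kb, itself still called at 30 h. Neither was called at 6 h.

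The members were weaker than the list as a whole by the caller's own measure, and over the whole list weak regions were missing more often. Their median -log10 q in DMSO was 64.9, against 91.7 over all DMSO regions, and their median pileup was 77.5 against 129. Their median fold enrichment, 13.7, was close to the 13.0 of the list. Of the 22 members 16 fell in the lower 5 deciles of -log10 q, where 14 were missing at 6 h and 11 at 30 h. In those deciles 70.4% of all DMSO regions were missing at 6 h and 45.4% at 30 h. The 6 members in the upper 5 deciles had 3 missing at 6 h and 1 at 30 h, against 16.8% and 6.77% of the list. Averaged over the members' own deciles, the list-wide share missing was 54.7% at 6 h and 32.4% at 30 h, and at their own expected pileups 60.8% and 38.2%. The shares in the domain were 77.3% and 54.5%. As these losses were known when the domain was chosen, they are set beside the averages as a description only.

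**Figure D3:**
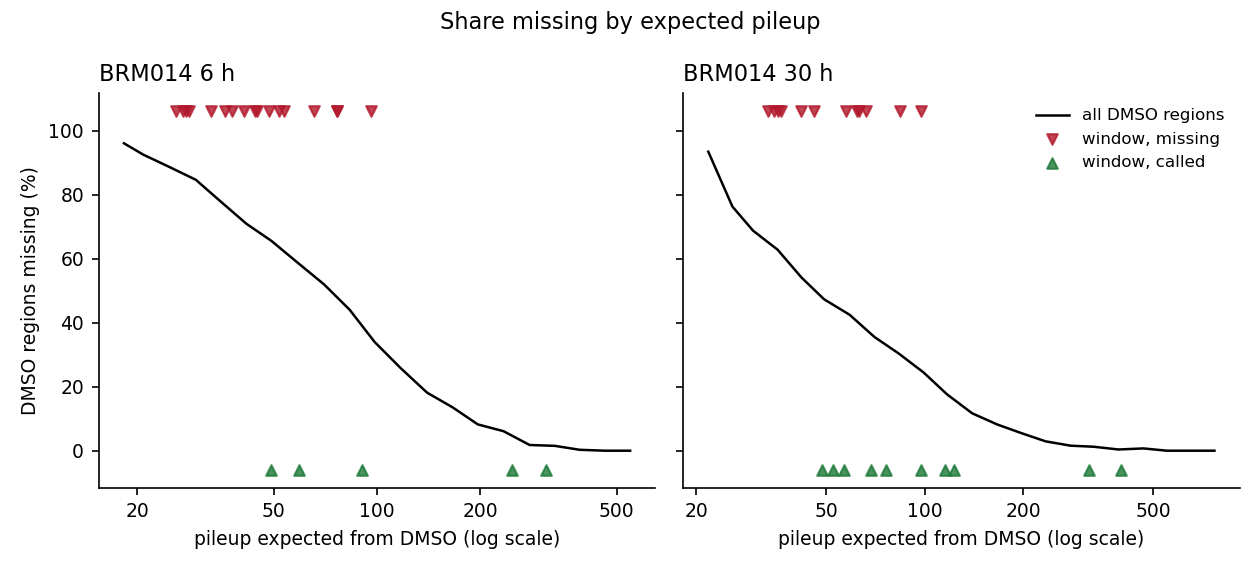
The line is the share of all DMSO regions missing at each expected pileup (log axis), at 6 h and at 30 h, and triangles are the 22 regions of the Bmp2 domain, missing ones above and called ones below. The missing members reach expected pileups of 95.7 at 6 h and 97.7 at 30 h, and called members start at 49.1 and 48.4.

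Within the domain the groups overlapped in strength. The members missing at 30 h ran from 28.1 to 101 in -log10 q with a median of 50.6, and those called from 40.8 to 496 with a median of 85.3. At 6 h the missing members ran from 28.1 to 126 and the called ones from 56.7 to 496. The highest expected pileup among those missing at 6 h, 95.7, was that of the region at 195 kb, and at that height 34.0% of the list was missing. Summit number differed too: of the 17 members missing at 6 h 12 had 1 summit, and of the 5 called 0 had. At 30 h 8 of the 12 missing and 4 of the 10 called members had 1 summit, and over the whole DMSO list 49.0% of regions did. That list share is not split into missing and called regions. The missing members had a median width of 561 bp at 6 h, against 960 bp for the called ones, and of 542 bp against 696.5 bp at 30 h. The width difference was not particular to the domain. Over the whole list the median width was 531 bp for regions missing at both times and 800 bp for those called at both.

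Loss was counted by distance from the gene's position. Over the whole list, wherever a region lay, 43.6% were missing at 6 h and 26.1% at 30 h. Within 100 kb, 4 of 7 regions were missing at 6 h and 2 of 7 at 30 h, the last a share of 28.6%, near that of the list. Between 100 and 300 kb 10 of 12 were missing at 6 h and 8 of 12 at 30 h, and beyond 300 kb 3 of 3 and 2 of 3. The counts of near regions are small, and the shares went with the point chosen. Measured from 133.38 Mb, the share at 30 h was 50% within 100 kb, 58.3% from 100 to 300 kb and 50% beyond. At 6 h it was 66.7%, 83.3% and 75% in the same order. No steady rise with distance remained at either time. By side, 6 of 8 regions of lower coordinates were missing at 6 h and 4 of 8 at 30 h. On the side of higher coordinates 11 of 14 were missing at 6 h and 8 of 14 at 30 h. The sides thus had similar shares, 75% and 78.6% at 6 h and 50% and 57.1% at 30 h. The nearest members on either side of the position, at -22.1 kb and 43.4 kb, were both missing at 6 h. At 30 h that at -22.1 kb was called and that at 43.4 kb was missing. At their expected pileups 47.3% and 42.5% of all DMSO regions were missing at 30 h.

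Kept regions were mostly somewhat narrower. At 30 h 8 of 10 kept members were narrower than in DMSO, with a median width of 92.6% of the DMSO width, against 66.7% of kept regions and a median of 95.2% over the list. At 6 h 4 of 5 were narrower, with a median of 95.4%, against 75.2% and a median of 91.4% over the list. Relative to the DMSO width the narrowest kept region was that at 287 kb, at 48.5% at 6 h and 56.6% at 30 h, where the region was 334 bp wide at 6 h and 390 bp at 30 h, against 689 bp in DMSO. There the side of lower coordinates drew in more, by 233 bp at 6 h and 226 bp at 30 h, and with it a minor DMSO summit with a pileup of 16 was lost. The other end moved as well, to -122 bp at 6 h and -73 bp at 30 h from its DMSO position. The region at 61.4 kb, by contrast, was 624 bp wide at 30 h against 513 bp in DMSO.

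**Figure D4:**
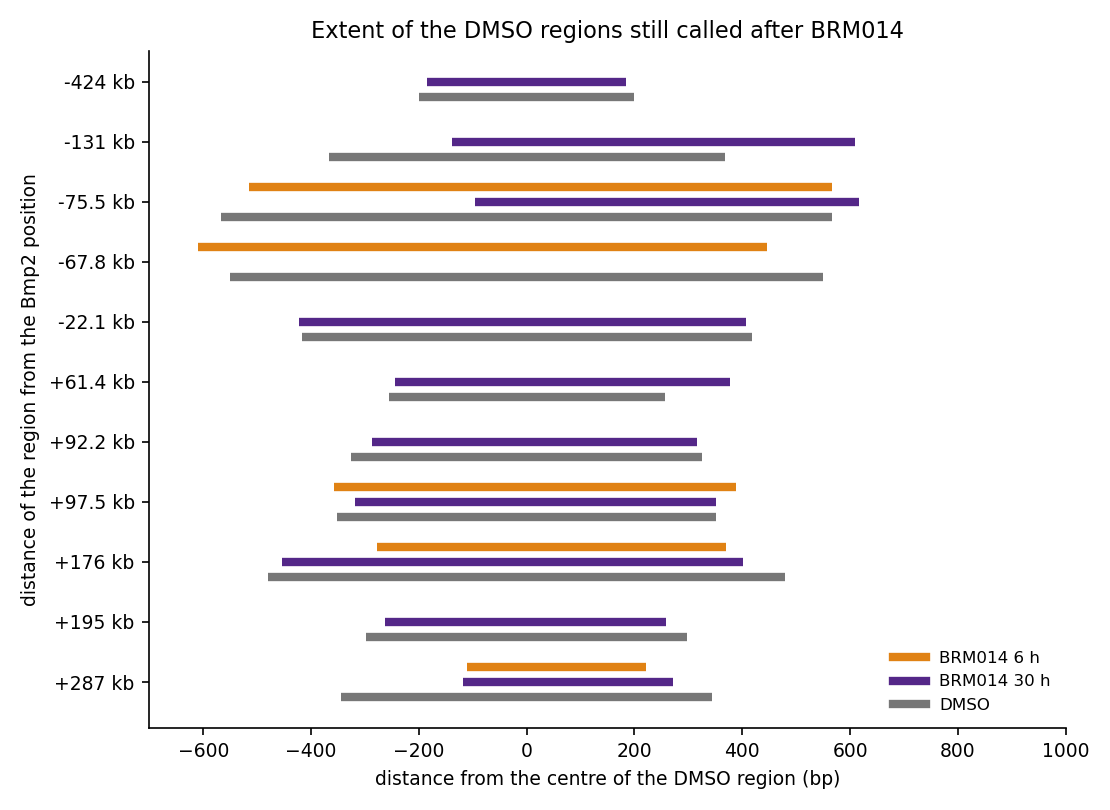
Bars are the extents in bp of each DMSO region of the Bmp2 domain that was called after BRM014, centred on the middle of the DMSO region and ordered by position, with the bars of the 6 h, 30 h and DMSO lists from top to bottom. Most treated bars lie within the DMSO bar, and at 287 kb they cover 334 and 390 of 689 bp.

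The stretches of 1.1 Mb on either side held different numbers of regions and lower shares missing. In the stretch of lower coordinates, 16 of 35 DMSO regions were missing at 6 h (45.7%, 30.5 to 61.8%) and 7 of 35 at 30 h (20%, 10.0 to 35.9%). In that of higher coordinates, 8 of 15 were missing at 6 h (53.3%, 30.1 to 75.2%) and 5 of 15 at 30 h (33.3%, 15.2 to 58.3%). Since the count missing in the domain was known when it was chosen, these shares are given side by side and nothing is read from their difference. The edges of the domain lie in DNA without DMSO regions, though the new 30 h region at -464 kb lies in the gap at the lower edge. The first member stands 156 kb from the last DMSO region below the domain, chr2:132818597-132819735, which was missing at 6 h only and had a pileup of 135 at 30 h against 192 in DMSO. The last member stands 446 kb from the first one above it, chr2:134245128-134245960, which was missing at both times and had a pileup of 48 in DMSO. Inside the domain the gaps between neighbouring DMSO regions ran from 4.62 to 190 kb, with a median of 24.2 kb.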

How the data were processed

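The study's 6 ATAC-seq samples were used as 3 peak lists, 1 per group, each made from both replicates, per the labels. Peaks were called with MACS2 2.1.2, and positions refer to mm9, per the submitters' processing notes. Not given in the sources used here are the aligner, read filters, any shift for the transposase and the caller's options. Each deposited entry carries a score, a fold enrichment (the ratio of summit to local background), a -log10 p, a -log10 q and a summit offset. All are the authors' own values for that peak. The minimum score was 540, and the lowest -log10 q of a DMSO region was 0.365. What decided whether a peak entered a list was not examined. No values were scaled between lists by the authors, as far as the sources say.

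Overlapping entries of a list were merged, and the merged region took the highest value of each measure. A DMSO region counted as called at 6 h or 30 h when a region of that list shared 1 bp or more with it, and otherwise as missing. A treated region with no such DMSO region was new. Intervals are 95% Wilson intervals and cover counting error only.

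Read totals were not analysed here. Assuming the MACS2 defaults, each entry was solved for a whole-number pileup and its local background from its fold enrichment and -log10 p, within 0.001 of the deposited -log10 p for 100% of entries. Each list's lowest background was taken as its relative depth. Python 3.11.15, pandas 2.3.3 and scipy 1.17.1 were used. The pileup step was tested on simulated entries. The overlap step was tested on a copy of the DMSO list with regions removed at random and the others shifted slightly. With 1 list per group, treatments were not tested against each other.

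The window, its members and the summaries were chosen with earlier results of these data known. Every DMSO region and every new region of the window was described. Values are given one by one for regions missing at 30 h, for new regions and for the 3 kept regions with the highest -log10 q. Of genes, Bmp2 and its direct neighbours in the reference order are named. The planned motif search in the Bmp2 promoter was not run, because the RefSeq promoter table at hand (GRCm38.p6) has no Bmp2 entry, and no coordinates were converted between builds. Alternatives for overlap, merging, thresholds, list length, window, depth and gene position were tried.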

Additional observations from a re-analysis of the deposited data

How the results depend on the processing

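The shares of DMSO regions missing in the Bmp2 domain, the median pileup ratios and the shares by distance stayed within their interval or spread under every alternative run. Missing regions ranged from 63.6% to 81.8% at 6 h, from 42.9% to 63.6% at 30 h and from 35.7% to 54.5% at both times, with the lowest value at both times from regions at a score of 1000. The shares of the whole list given above hold for the main setting only, and none is given here for the alternatives. Equal list length leaves 11 DMSO regions and cuts the 30 h list too, to 6 regions in the domain. The shares at 6 h and 30 h were then equal, 63.6% each, so the difference between the times was not seen there. New regions are the exception, at 0 of 5 and 2 of 12. With equal list length they were 20% at 6 h and 33.3% at 30 h. At 30 h they were 8.33% with regions within 500 bp shared, 11.1% with every entry counted and 10.0% in the window from 133 Mb. The cause was not tested. Lists of equal length remove the weakest regions of both the DMSO and the 30 h list, and the narrower window leaves out the new region at -464 kb. The treated lists are shallower than the DMSO list, and the part of depth in the loss of single weak regions was not tested. No paired analysis was possible because the replicates were pooled before peak calling, so that leaving out single replicates could not be done either.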

Other observations

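The fold enrichment deposited by the authors and the pileup solved from it gave different pictures of the strongest region of the Bmp2 domain, at 176 kb. Its fold enrichment was 14.0 at 6 h and 14.3 at 30 h, against 25.4 in DMSO. Its pileup divided by relative depth was 85.7 at 6 h and 64.4 at 30 h, against 493 in DMSO. The local background solved at the same summits was 2.92 at 6 h and 2.72 at 30 h, against 18.5 in DMSO, whereas the lowest background of the lists was 2.12, 2.72 and 3.37 in the same order. At -75.5 kb the local background at the main summit was 6.48 at 6 h and 8 at 30 h, against 23.2 in DMSO, with fold enrichments of 11.4, 13.6 and 16.3. A reading of the domain on fold enrichment alone would therefore place its strongest regions closer to their DMSO height than the pileups do.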
